A study of Xenopus laevis with 42 samples.

Results

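Descendants of one identified cell of the frog embryo, the dorsal-animal blastomere D1 of Xenopus laevis, were compared between the gastrula and the early neurula, the interval in which the neural plate and the somites take shape. In the study D1 was either filled with a fluorescent dye, so that its glowing descendants could be cut out of the intact embryo later on (called progeny), or taken away from the embryo and grown by itself (called explant). Both tissues were sampled at 7 stages, in 42 samples that make 14 groups of 3. The comparison described here uses 6 of these samples: 3 of progeny at gastrula (stage 11, 11 hours) and 3 at early neurula (stage 14, 16 hours), numbered by frog. The labels name no mutation, drug or other agent in any group. The dye marks every descendant of D1, so the dissected tissue holds whatever cell types D1 forms, and the number of embryos behind a sample was not given in the sources used here.

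Levels are in TPM as deposited, a measure of transcript amount that is corrected for transcript length and brought to the same total in every column. The 3 samples of a group arrive as 1 pooled column, so the comparison rests on 2 of 14 columns, and no replicate spread, test or p-value can be given for any value here. Of the 44962 rows of the progeny table, 25062 reached 1 TPM in at least 1 of the 7 progeny columns and make up the comparison, and 18830 of them carry a gene symbol. Rises and falls are called from a difference of 1 or more in log2(TPM + 1), a limit of 2-fold on that scale, on which the change of rows at low levels is understated. Xenopus laevis is an allotetraploid, with most genes present as a long-chromosome copy (L) and a short-chromosome copy (S), and each copy has a row of its own.

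During gastrulation the dorsal lip, or Spemann organizer, secretes inhibitors of BMP and Wnt ligands, and ectoderm shielded from BMP becomes neural plate. The plate is then divided along its length by transcription factors, with eye-field genes in front and Hox genes behind, while neural crest and placodes form along its border and the mesoderm beside the notochord becomes somite and then muscle. The D1 cell is known mainly as a source of brain, retina and other dorsal tissue.

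The 2 columns differed widely. Between gastrula and early neurula 4653 rows rose (18.6% of the rows compared) and 4131 fell (16.5%), and 16278 differed by under 2-fold. The median log2 difference over all rows was 0.12. At the top end the rises outnumbered the falls: 451 rows rose and 198 fell by at least 8-fold, and 77 rose and 8 fell by at least 32-fold. In summed abundance the risen rows went from 72029 to 242836 TPM and the fallen rows from 230376 to 65609 TPM. The falls of at least 32-fold and the fallen sum include the row cirbp.L, taken up below, and a row without a symbol. They read 5676 and 6066 TPM at gastrula and were listed at 0 at early neurula. In bulk tissue a larger share of cells of a type and more RNA per cell cannot be told apart, and this holds for every level below.

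**Figure D1:**
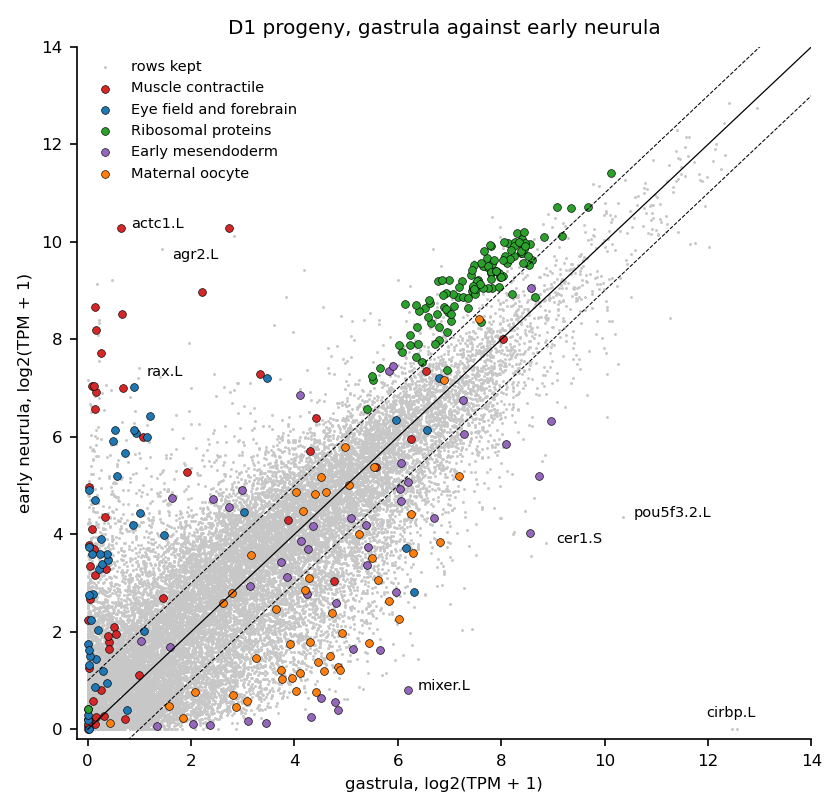
Levels of 25062 rows in D1 progeny at gastrula (x axis) and early neurula (y axis), both as log2(TPM + 1), with 1 pooled value per stage. The solid line marks equal levels and the dashed lines 2-fold, colours mark the rows of 5 gene lists, and 7 rows are labelled: nearly all ribosomal rows and many muscle rows lie above the upper line, and cer1.S, mixer.L and pou5f3.2.L far below the lower one.

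Rows that rose were mostly low before gastrulation, and rows that fell were mostly abundant. Of the risen rows, 2037 (43.8%) stayed under 1 TPM in all 4 columns from 8-cell to blastula, against 6069 (24.2%) of all rows. Of the fallen rows, 2969 (71.9%) had reached 10 TPM in at least 1 of those columns, against 12602 (50.3%) of all rows. Part of this contrast follows from the calling rule and the filter. A row under 1 TPM at gastrula cannot be called fallen, and rows kept only for a neurula level were under 1 TPM earlier by selection. How large that part is was not tested. The median risen row stood at 1.72 TPM at blastula, 2.09 at gastrula, 11.4 at early neurula, then 15.3 at mid neurula. The median fallen row stood at 27.1, 15.7, 3.49 and 3.74 TPM at the same stages. A group of 289 rows went from under 1 TPM at gastrula to at least 10 TPM at early neurula, 259 of which were also under 1 TPM in every earlier column. The opposite course, from at least 10 to under 1 TPM, was taken by 60 rows, 43 of which had reached 10 TPM before gastrulation.

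Measured against the other steps of the same series, this interval was the second in size. The share of rows that differed by at least 2-fold was 47.9% from blastula to gastrula, 35.05% from gastrula to early neurula and 9.73% from early to mid neurula. It was no higher than 2.70% in the 3 steps between the 8-cell stage and the blastula. The steps differ in length, and the shares were not adjusted for it. The 8-cell stage was taken at 2 hours 15 minutes and the 32-cell stage at 3 hours. Blastula samples date from 5 hours and gastrula samples from 11, while early neurulae were 16 hours old and mid neurulae 18. How far the ranking follows elapsed time was not tested. The steps also share columns with one another, so they are given only side by side.

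**Figure D2:**
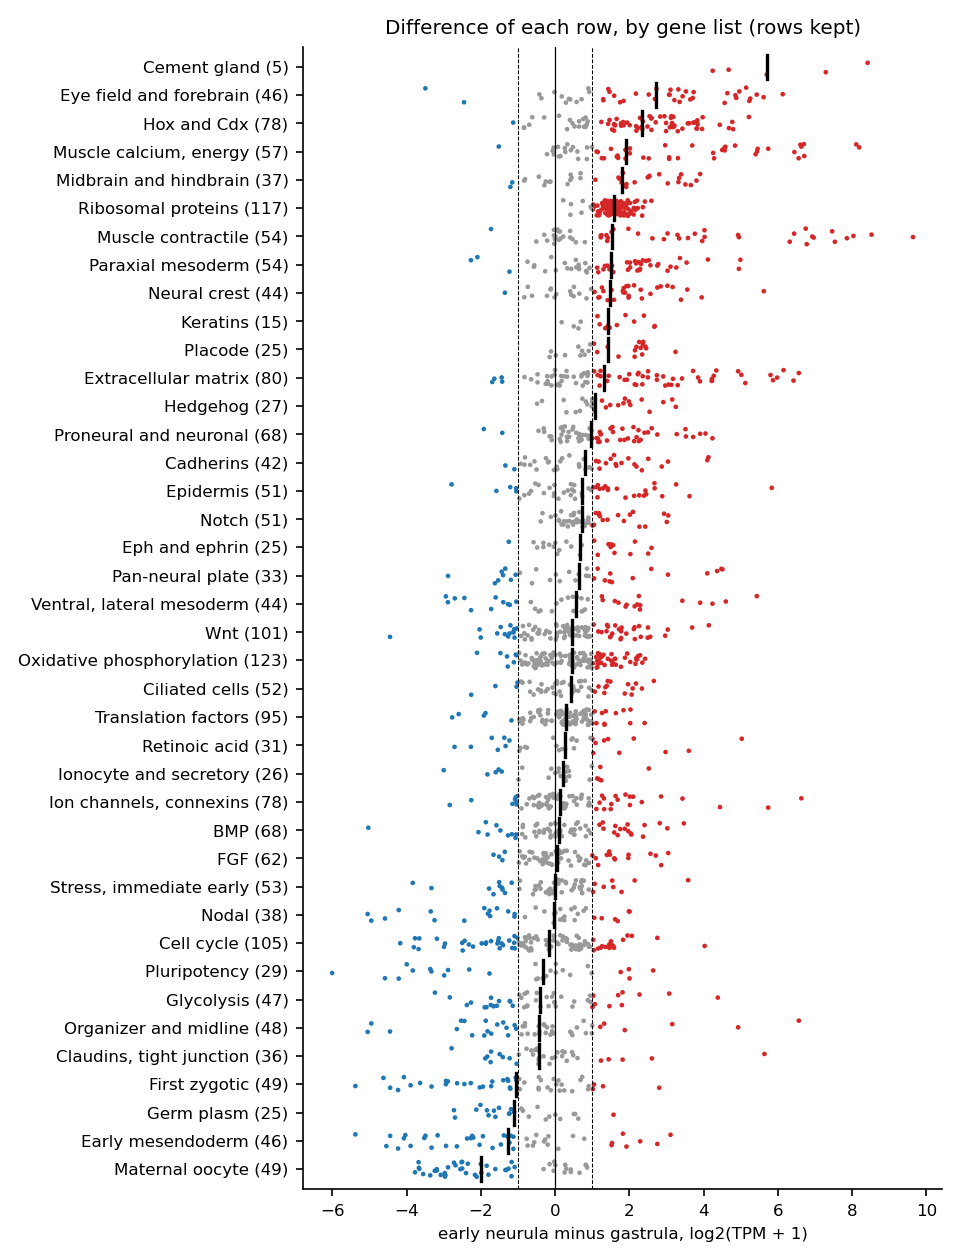
Log2(TPM + 1) difference from gastrula to early neurula in D1 progeny for the rows of 40 gene lists, 1 point a row, with a black bar at the median of each list and the number of rows in brackets. Dashed lines mark the 2-fold limits, red and blue points rose and fell, and the lists run from cement gland (median 5.7) down to maternal oocyte (median -2.0).

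The lists of tissue markers give only a rough view of the tissues in the sample, since a sum can be carried by few genes. Neural plate markers were present at both stages, with 9 rows summing to 1399 TPM at gastrula and 1293 at early neurula. That sum was already 1267 TPM at 8-cell, before a neural plate exists, with 866 TPM in sox3.S and 395 in sox3.L. The near-equal sums also hold genes that rose (ncam1) and fell (zic1), given below. Somite and muscle markers (10 rows) went from 236 to 4768 TPM, cement gland markers (3 rows) from 7.98 to 2090, epidermal markers (10 rows) from 345 to 1132 and neural crest markers (8 rows) from 60.1 to 221, with sox10.L listed at 0 at gastrula. Notochord markers (7 rows) went from 1068 to 596 TPM, endoderm markers (6 rows) from 222 to 125 and ionocyte markers (4 rows) from 89.4 to 18.7. Most of the notochord sum at gastrula came from t, a gene also of early mesoderm, with 499.8 TPM in t.S and 270.4 in t.L. Multiciliated cell markers (7 rows) stood at 65.0 and 75.8 TPM. Blood and heart markers stayed low, at 1.87 and 24.4 TPM over 8 rows, 5 of which were under 1 TPM at early neurula, with hba1.L listed at 0 there. Markers of several tissues were thus present, and the part that shifts between cell types have in the gene changes below was not tested.

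Pan-neural genes moved in both directions. Of 33 rows in that list 13 rose and 8 fell, with a median of 0.63. Those that fell included the early neural plate regulators. The zinc-finger gene zic1 fell in both copies, zic1.S from 212 to 68.3 TPM and zic1.L from 104 to 38.8 TPM. The geminin gene gmnn, which restrains DNA replication licensing and favours the neural state in early ectoderm, read 1380.2 TPM at blastula and 583 at gastrula, then 201 at early neurula, with 88.9 at mid neurula for its S copy. Its log2 difference over the interval was -1.53, and that of gmnn.L was -1.44. The forkhead genes foxd4l1.1.L (from 138 to 54.1 TPM) and foxd4l1.2.L (from 38.5 to 4.36 TPM), which keep neural ectoderm in an immature state, fell as well. The SoxB1 genes, which maintain neural progenitors, stayed within 2-fold: sox2.S read 5.52 TPM at blastula and 175 at gastrula, then 328 at early neurula, with 209.6 at mid neurula, and sox3.S went from 459 to 323 TPM. Genes of the formed neural tissue rose instead. The adhesion gene ncam1 rose in ncam1.L from 0.569 to 33.95 TPM and in ncam1.S from 0.849 to 37.01 TPM, with 55.8 TPM in ncam1.L at mid neurula. The beta-tubulin gene tubb2b.S rose from 0.374 to 30.2 TPM and tubb2b.L from 12.5 to 80.6 TPM. N-cadherin, cdh2, whose appearance accompanies neural plate folding, rose by 4.1 on the log2 scale in cdh2.L (from 3.48 to 75.7 TPM) and by 3.04 in cdh2.S.

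Genes known from the front of the plate gave some of the largest rises among transcription factors. In the eye-field and forebrain list 33 of 46 rows rose and 2 fell, with a median of 2.71, and 16 rows went from under 1 to at least 10 TPM. The paired-box gene pax6, needed for eye formation, rose from 0.921 to 66.9 TPM in pax6.L and from 0.641 to 50.2 TPM in pax6.S, and stood at 44.4 TPM in pax6.L at mid neurula. The S copies of rax and six3, both eye-field genes, rose from 0.449 to 69.95 TPM and from 0.851 to 69.7 TPM. The Wnt and FGF receptor inhibitor shisa2.L, also on this list, read 3.48 TPM at blastula and 0.396 at gastrula, then 59.1 at early neurula, with 84.7 at mid neurula. Which tissue of the progeny the shisa2.L rise came from was not tested. Not every gene of the list stayed up afterwards, since rax.L went from 129 TPM at early neurula to 69.8 at mid neurula. The 2 fallen rows were the copies of the LIM-homeobox gene lhx5, which fell from 78.5 to 6.06 TPM in lhx5.S and from 70.7 to 12.1 TPM in lhx5.L. The anterior head gene otx2 was already on at gastrula and stayed within 2-fold, with 111 and 147 TPM in otx2.L and 93.5 and 69.5 TPM in otx2.S.

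**Figure D3:**
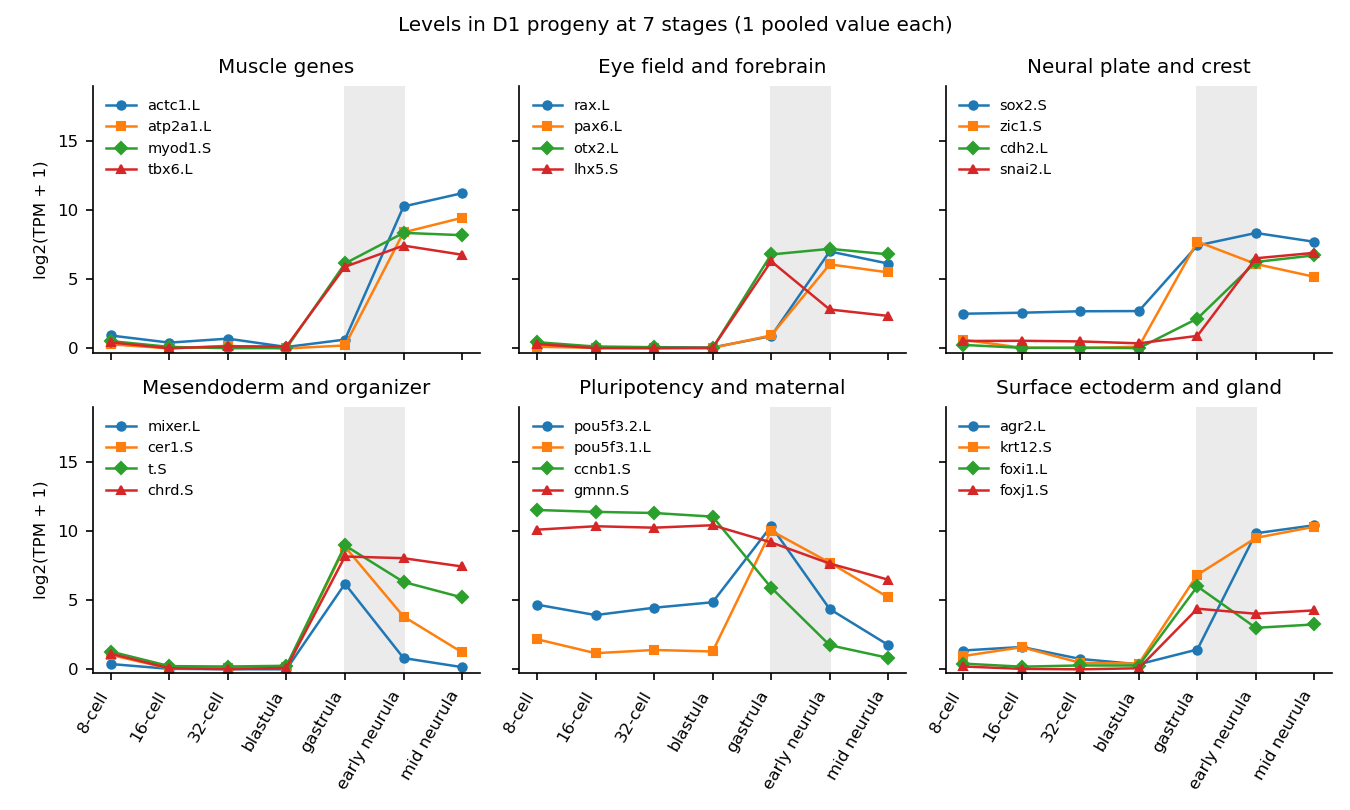
Courses of 24 rows through the 7 stages in D1 progeny as log2(TPM + 1), 1 pooled value a stage, with the gastrula to early neurula interval shaded. Muscle genes, rax.L, pax6.L and agr2.L climb within the shaded interval, while mixer.L, cer1.S and pou5f3.2.L peak at gastrula and drop within it.

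Genes of the midbrain, the midbrain-hindbrain boundary and the hindbrain rose in 22 of 37 rows and fell in 2 (median 1.79). The boundary gene pax2 rose from 0.179 to 15.5 TPM in pax2.L and from 0.203 to 14.2 TPM in pax2.S, and the signal of the dorsal midbrain and boundary, wnt1.L, rose from 0.0351 to 7.48 TPM. The LIM-homeobox gene lmx1b.1.L, which acts at the same boundary, rose by 3.51 on the log2 scale. Further back, irx3.S, a homeobox gene of the hindbrain and midbrain, rose from 7.15 to 55.9 TPM, whereas irx2.S fell from 32.7 to 13.6 TPM. The TALE cofactors of Hox proteins differed among themselves. The row meis1.L rose from 1.94 to 28.7 TPM, meis3.L stood at 66.7 and 89 TPM, and the copies of meis2 went opposite ways, meis2.L from 0.0997 to 15.5 TPM and meis2.S from 5.86 to 2.08 TPM. With both copies summed, meis2 rose by 1.41 on the log2 scale.

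The Hox genes, which assign position along the body axis, rose almost as a block. Of 72 Hox rows, 59 rose and 0 fell, and the summed level of the rows of each paralog group shows where. Groups 1 and 13 stood apart from the others. Group 1 (6 rows) held the most at gastrula and went from 209 to 176 and then 77.8 TPM at mid neurula, while group 13 (3 rows, none risen) stayed low at 0.698, 2.05 and 4.45 TPM. Most of group 1 was hoxd1, an early retinoid-responsive Hox gene, with 92.7 and 56.9 TPM in hoxd1.L and 98.1 and 54.6 TPM in hoxd1.S. In between, the largest ratios of summed level were in groups 7 to 10: group 7 went from 1.28 to 89.9 TPM, group 8 from 2.46 to 103, group 9 from 1.72 to 114 and group 10 from 0.847 to 60.02. Group 6 gained the most TPM, from 9.23 to 128, and group 4 went from 4.22 to 96.2, while the posterior groups 11 and 12 only reached 9.01 and 2.22 TPM at early neurula. Outside group 1 every group thus started below 10 TPM in sum. The most changed row was hoxb9.S, a trunk and spinal cord marker, at 0.29 TPM at gastrula, 47.1 at early neurula, then 60.02 at mid neurula. It was followed by hoxb7.L (from 0.107 to 29.7 TPM) and hoxb8.L (from 0.015 to 26.7 TPM). The Cdx genes, caudal-type activators of posterior Hox genes, did not climb with them: cdx1.S fell from 166 to 75.3 TPM, and cdx4.L stood at 112 and 139.8 TPM.

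**Figure D4:**
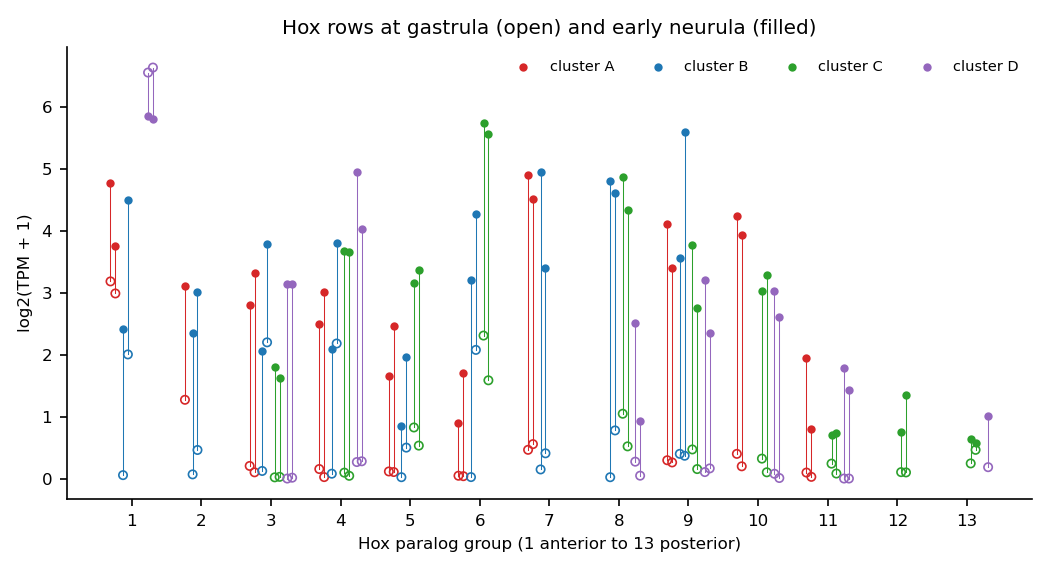
Levels of 72 Hox rows in D1 progeny as log2(TPM + 1) at gastrula (open circles) and early neurula (filled circles), joined by a line for each row, by paralog group (x axis) and cluster (colour), with L and S copies side by side. The lines climb in every row except the 2 copies of hoxd1, which stand highest at gastrula and lie lower at early neurula.

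Genes of neurons started from low levels. Of 68 proneural and neuronal rows 33 rose and 2 fell (median 0.96), and 45 of them were under 1 TPM at gastrula. Among the proneural factors, which commit progenitors to the neuronal fate, neurog1.L rose from 2.76 to 17.6 TPM, but neurog2.S stood at 5.14 and 10.5 TPM and neurog3.S at 5.22 and 6.02 TPM. The cell-cycle inhibitor cdknx.L, which accompanies exit from division in primary neurons, read 0.423 TPM at blastula and 49.1 at gastrula, then 337 at early neurula, with 342 at mid neurula. Other neural transcription factors rose, isl1.L, of motor and sensory neurons, from 0.6 to 29.2 TPM and the bHLH gene olig4.L from 4.07 to 57.2 TPM, as did dbx1.S, a homeobox gene of interneuron progenitors, by 4.05 on the log2 scale. Both isl1 copies also count in the lateral and ventral mesoderm list, so their rise is not specific to neurons. The synaptic vesicle fusion gene snap25.L rose from 0.213 to 12.8 TPM. The fallen rows were the copies of prdm14, a zinc-finger gene, with prdm14.S going from 38.5 to 9.44 TPM.

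At the plate border, 28 of 44 neural crest rows rose and 1 fell (median 1.47). The crest specifier snai2.L, which drives the loosening of crest cells from the epithelium, read 0.292 TPM at blastula and 0.877 at gastrula, then 91.3 at early neurula, with 120.2 at mid neurula. It was followed by sox8.L (from 1.104 to 31.4 TPM), twist1.S (from 5.299 to 73.3 TPM) and sox9.S (from 4.07 to 44.5 TPM), factors of the early crest, and by the border gene zic5.S, up by 3.39 on the log2 scale. The copies of foxd3, another early crest gene, were already on at gastrula and stayed within 2-fold, at 27.05 and 36.2 TPM in foxd3.L and 21.7 and 19.9 in foxd3.S. Genes of the sensory placodes rose in 15 of 25 rows and fell in 0 (median 1.42), among them eya1.S, a transcriptional cofactor (from 2.83 to 19.7 TPM).

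The cement gland, the mucus-secreting organ at the front of the tadpole head, and the hatching gland had a short list in which 5 of 5 rows rose, with a median of 5.7. The secreted disulfide isomerase agr2 accounted for most of the signal: agr2.S rose from 6.09 to 1108 TPM, and reached 1516 TPM at mid neurula. The homeobox gene pitx1.L, which acts in the forming gland, rose from 0.19 to 60.8 TPM.

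Surface ectoderm genes divided by kind. In the epidermis list 22 of 51 rows rose and 5 fell (median 0.72). Keratins, the intermediate filament proteins of epithelia, rose in 11 of 15 rows and fell in 0 (median 1.42), and their summed level went from 2800.4 to 9134 TPM. The larval epidermal keratin krt12.S rose from 114 to 731 TPM, and krt18.S from 250.4 to 1098 TPM. In explants at early neurula krt12.S read 5323 TPM and krt18.S 202 TPM, in a table scaled separately. Which tissue of the progeny the keratin rows came from was not tested. The gene tp63.S, master regulator of the basal epidermal layer, rose from 0.745 to 15.7 TPM. Other regulators of the surface layer went different ways. The transcription factor tfap2a.L fell from 102 to 43.8 TPM, and grhl3.L, a grainyhead-like gene of the epidermal barrier, from 108 to 51.9 TPM. With median-of-ratios scaling grhl3.L no longer reached 2-fold. Its other copy grhl3.S stood at 67.3 and 71.8 TPM. The homeobox gene dlx3.L rose from 14.8 to 41.4 TPM, while its more abundant copy dlx3.S stayed within 2-fold, at 35.2 and 44.9 TPM. The tight junction list held 9 falls and 5 rises in 36 rows (median -0.44). In it cldn6.1.L, a claudin of the early embryo, read 1970.2 TPM at blastula and 804 at gastrula, then 116 at early neurula, with 62.1 at mid neurula, and cldn7.S fell from 425 to 115 TPM, while cldn1.S rose from 0.0756 to 52.6 TPM.

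Genes of specialised skin cells had no common direction in the progeny. Of 52 rows for cilia and multiciliated cells 14 rose and 4 fell (median 0.43), and 0 went from under 1 to at least 10 TPM. The motile cilia regulator foxj1.S stood at 19.96 and 15.3 TPM, and gmnc.L, which starts the multiciliated program, fell from 5.36 to 0.328 TPM. The tektin gene tekt2.S, coding for a protein of the ciliary axoneme, rose from 0.362 to 7.604 TPM. Of 26 ionocyte and secretory cell rows 5 rose and 5 fell (median 0.22), near the 18.6% and 16.5% of all rows. Over the rows with at least 5 TPM at either stage the median was -0.94. The ionocyte master gene foxi1 fell in foxi1.L from 63.1 to 7.02 TPM and stood at 10.2 and 5.09 TPM in foxi1.S.

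Organizer and axial mesoderm genes fell more often than they rose, 17 against 6 of 48 rows (median -0.43). Brachyury, t, the T-box gene of notochord and early mesoderm, fell in both copies, t.S from 499.8 to 79.1 TPM and t.L from 270.4 to 56.8 TPM. Genes of the leading anterior endomesoderm fell too: the secreted inhibitor cer1.L from 82.7 to 1.71 TPM, the homeobox gene hhex.L from 26.6 to 3.78 TPM and the Wnt antagonist frzb from 129 to 4.96 TPM in frzb.S and from 147 to 49.4 TPM in frzb.L. The BMP antagonist chordin kept its level, with 0.0745 TPM at blastula and 287 at gastrula, then 263 at early neurula, with 173 at mid neurula in chrd.S. Genes of the maturing notochord and floor plate went up. The signal shh.L rose from 3.74 to 41.2 TPM, shh.S read 6.92 and 14.8 TPM, just under the 2-fold limit, and the cartilage and notochord collagen col2a1 rose by 6.56 on the log2 scale in col2a1.L (from 0.171 to 109.7 TPM) and by 4.93 in col2a1.S.

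Early mesendoderm genes declined broadly, with 27 of 46 rows fallen and 7 risen (median -1.26). The Mix-type homeobox genes mixer and mix1, which specify endoderm, were nearly gone. The row mixer.L went from 72.1 to 0.759 TPM and mix1.L from 26.5 to 0.469 TPM. The T-box genes eomes.S (from 49.6 to 2.09 TPM) and vegt.S (from 377 to 15.2 TPM) fell by 4.03 and 4.54 on the log2 scale. The row a2m.S, a secreted protease inhibitor gene and the most abundant of the list, stood at 378 and 529.7 TPM.

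Paraxial mesoderm genes numbered 54 rows, of which 33 rose and 3 fell (median 1.5). They cover the steps from unsegmented mesoderm to muscle precursor. The presomitic T-box gene tbx6.S rose from 16.3 to 116 TPM, the segmentation gene mespa.S by 3.11 on the log2 scale, and tcf15, a bHLH gene of the epithelial somite, from 0.0102 to 31.1 TPM in tcf15.S. The myogenic master gene myod1 was on at gastrula already: myod1.S rose from 70.1 to 329 TPM and myod1.L from 30.5 to 126 TPM, and myod1.S stood at 293 TPM at mid neurula. The muscle transcription and splicing factors mef2d.L (from 1.86 to 48.6 TPM) and rbm24.L (from 33.4 to 330.0 TPM) rose more steeply. The retinoic acid synthesis gene aldh1a2.S fell from 68.7 to 13.5 TPM.

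Muscle structural genes gave the largest rises of the whole comparison. Of the 15 genes of highest difference, taken by 1 row each, all but agr2.L and col2a1.L code for muscle proteins. Among contractile genes 34 of 54 rows rose and 1 fell (median 1.55), 15 of them from under 1 to at least 10 TPM. The genes of muscle calcium handling and energy supply behaved alike in count, with 39 risen and 1 fallen of 57 (median 1.91). The fast myosin light chain myl1.S read 0.0324 TPM at blastula and 0.106 at gastrula, then 405 at early neurula, with 963 at mid neurula. The second light chain mylpf.S rose from 0.576 to 365 TPM, the muscle actin act3.L from 0.114 to 291 TPM and desmin, the intermediate filament of muscle, from 0.0587 to 131 TPM in des.1.L. Cardiac actin actc1.L, the most changed row, went from 0.561 to 1241 TPM and on to 2415 TPM at mid neurula. All of these rows were under 1 TPM at gastrula and above 100 TPM at early neurula. Rows for the machinery around the filaments rose too: smyd1.L, a methyltransferase needed for sarcomere assembly, rose from 0.118 to 116 TPM, and klhl41.L, a kelch protein of the sarcomere, from 0.0994 to 113 TPM. The calcium channel subunit cacng1.L rose from 0.0328 to 101 TPM and sarcalumenin, srl.S, which binds calcium in the sarcoplasmic reticulum, from 0.22 to 118 TPM. The contractile rows together summed to 654 TPM at blastula, 588 at gastrula, 5943 at early neurula, then 14098 at mid neurula.

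Lateral and ventral mesoderm genes were mixed, with 16 risen and 11 fallen of 44 rows (median 0.56). The ventralising homeobox gene ventx1.2.S, a BMP target, fell from 49.9 to 5.63 TPM. The early blood and vessel gene lmo2.S rose from 0.0745 to 45.4 TPM, the myeloid factor spib.L by 4.6 on the log2 scale and the heart field gene nkx2-5.S from 0.55 to 15.7 TPM. The gene nkx2-5 is also one of the blood and heart markers given above. Of the blood markers there, gata1 and hba1 were under 1 TPM at early neurula in each copy.

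**Figure D5:**
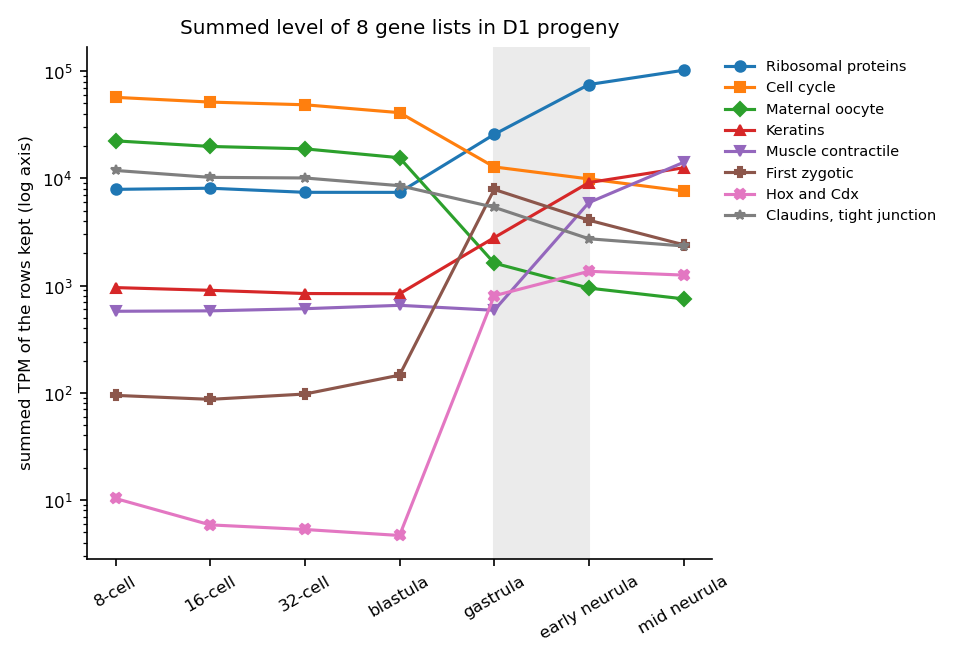
Summed TPM of the rows of 8 gene lists at each of the 7 stages in D1 progeny on a log axis, 1 pooled value a stage, with the gastrula to early neurula interval shaded. Muscle, keratin and ribosomal lists climb across the interval, and the first zygotic, tight junction, cell cycle and maternal lists decline.

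Regulators of the uncommitted state declined. In the pluripotency list 11 of 29 rows fell and 4 rose (median -0.33). Some of these rows also count in other lists, the tdgf1.2 and tdgf1.3 copies in that of Nodal and klf2.L in that of stress. The POU factors of the pou5f3 cluster, counterparts of mammalian Oct4, fell at different times. The maternal member pou5f3.3.L read 919 TPM at blastula and 22.7 at gastrula, then 1.31 at early neurula, with 0.576 at mid neurula. The zygotic pou5f3.1.L read 1.45 TPM at blastula and 1047 at gastrula, then 210.1 at early neurula, with 35.99 at mid neurula, a fall of 2.31 on the log2 scale in the interval. Its paralog pou5f3.2.L fell from 1316 to 19.6 TPM. The Kruppel-like factor klf2.L fell from 24.3 to 0.775 TPM, whereas myc.S, the growth regulator, rose from 24.5 to 158 TPM. Of 49 rows of the first zygotic wave 25 fell and 4 rose (median -1.04), and their summed level went from 146 TPM at blastula to 7883 at gastrula and 4072 at early neurula. A large part of that sum was the hyaluronan synthase row has1.S, also on the matrix list, with 1.65, 3206 and 992 TPM at these stages. The mix1 and mixer rows are on this list as well as on that of early mesendoderm.

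Maternal transcripts continued to run down. No maternal oocyte row rose and 35 of 49 fell, with a median of -2.0. The bulk had gone before: these rows summed to 15583 TPM at blastula, 1619.6 at gastrula and 947 at early neurula. The oocyte linker histone h1foo.L read 578 TPM at blastula and 27.5 at gastrula, then 1.43 at early neurula, with 0.506 at mid neurula. Germ plasm genes, which mark the future germ cells, fell in 13 of 25 rows and rose in 1 (median -1.1).

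Of 105 cell cycle rows 29 fell and 18 rose (median -0.17), and the falls were led by the cyclins of the early cleavage cycles. Some of these rows, such as the ccna1 copies, are also on the maternal oocyte list. The mitotic cyclin ccnb1.S read 2125 TPM at blastula and 59.3 at gastrula, then 2.36 at early neurula, with 0.775 at mid neurula, and ccna1.S, the embryonic cyclin A, 2714 TPM at blastula and 64.4 at gastrula, then 3.79 at early neurula, with 7.51 at mid neurula. The cyclin row ccnb1.2.L, the most abundant of the list at gastrula, stood at 2132 TPM at blastula and fell from 1091 to 329.6 TPM. Replication genes of the somatic cycle rose in part, mcm5.S from 2.06 to 48.9 TPM and mcm2.S by 2.07 on the log2 scale, both subunits of the replicative helicase. For mcm2 this rise is a matter of the S copy, since the difference was 0.21 with both copies summed.

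Among the signalling lists, that of Nodal held the largest share of fallen rows. Nodal, a TGF-beta signal that induces mesendoderm, acts through EGF-CFC co-receptors and FoxH1. Of 38 rows 15 fell and 6 rose (median -0.03, or 0.01 with median-of-ratios scaling), and the summed level went from 1531 to 495 TPM. Much of that loss lay in the copies of the secreted inhibitor cer1, which are also on the organizer list. The most abundant row, cer1.S, went from 467 to 13.2 TPM, and cer1.L from 82.7 to 1.71 TPM. The co-receptor tdgf1.3.L read 174 TPM at blastula and 297 at gastrula, then 15.1 at early neurula, with 0.783 at mid neurula, and tdgf1.3.S went from 50.9 to 1.17 TPM. Its paralog tdgf1.2 went the other way, tdgf1.2.L rising from 1.02 to 7.11 TPM and tdgf1.2.S by 1.99 on the log2 scale. The TGF-beta ligand gene gdf3.S fell from 160.3 to 16.01 TPM, and the transcription factor foxh1.2.L from 11.9 to 0.267 TPM.

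In the BMP list 17 rows rose and 10 fell of 68, shares near the 18.6% and 16.5% of all rows, and the median equalled that of all rows (0.12). Ligand rows went both ways. The row bmp7.2.L read 59.5 TPM at blastula and 381 at gastrula, then 10.7 at early neurula, with 1.21 at mid neurula, and bmp4.S fell from 65.5 to 26.6 TPM, while bmp7.1.S rose from 0.647 to 7.51 TPM. The receptor bmpr1b rose from 1.57 to 27.4 TPM in bmpr1b.L and by 2.82 on the log2 scale in bmpr1b.S. Of the Id targets, inhibitors of bHLH factors, id4.S rose from 4.22 to 41.4 TPM and the far more abundant id3.L stood at 734 and 679 TPM. The antagonist noggin rose in nog.S from 0.73 to 5.35 TPM, but its copies summed differed by -0.13 on the log2 scale.

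Wnt pathway rows rose in 29 and fell in 14 of 101 (median 0.47). The gastrula ligand of the ventrolateral mesoderm fell, wnt8a.S from 41.3 to 9.32 TPM and wnt8a.L from 65.1 to 29.4 TPM, and ligands of the nervous system rose, with wnt4.L going from 0.168 to 19.6 TPM and wnt8b.L up by 2.5 on the log2 scale. The secreted inhibitor wif1.S rose by 3.69, and the R-spondin rspo3.L, which amplifies Wnt signals, by 2.96. FGF rows rose in 14 and fell in 4 of 62 (median 0.05, or -0.22 over rows with at least 5 TPM at either stage), shares near those of all rows or below. The receptor fgfr3.L rose from 0.623 to 10.8 TPM, while the immediate response gene egr1, an FGF target, fell by 1.51 in egr1.L and by 1.66 in egr1.S on the log2 scale.

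Notch and Hedgehog rows rose without a fall. In the Notch list 18 of 51 rows rose (median 0.72), led by the ligand dlc.S (from 1.93 to 21.4 TPM) and the Hes repressors hes8.S and hes5.2.S, up by 3.05 and 3.01 on the log2 scale, with hes3.S rising from 19 to 107 TPM and returning to 34.1 TPM at mid neurula. In the Hedgehog list 15 of 27 rows rose (median 1.06). The mediators gli2.L, gli2.S and gli3.S rose by 2.54, 2.91 and 3.25 on the log2 scale, while the transducer smo.L stood at 51.9 and 76.9 TPM. Retinoic acid rows rose in 10 and fell in 7 of 31 (median 0.27). The degrading enzymes exchanged: cyp26c1.L, a cytochrome of the head region, rose from 1.001 to 64.2 TPM, and cyp26a1.S fell from 234 to 90.3 TPM. The binding protein crabp2.L rose from 178 to 776 TPM.

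Extracellular matrix genes numbered 80 rows, of which 45 rose and 4 fell (median 1.31), 15 of them from under 1 to at least 10 TPM. The microfibril gene fbn3 rose from 2.89 to 244 TPM in fbn3.L and from 0.988 to 169 TPM in fbn3.S, sparc.L, a collagen-binding matrix protein gene, from 0.819 to 128 TPM and emilin3.L from 0.108 to 63.7 TPM. Yet the summed matrix level hardly differed, 3951 and 3993 TPM, because has1.S, a hyaluronan synthase row and the most abundant of the list, fell from 3206 to 992 TPM. Cadherins numbered 42 rows, of which 18 rose and 2 fell (median 0.8). The early embryo's cadherin cdh3.L stood at 323 and 220.0 TPM, and the protocadherin row pcdh8l.L rose from 2.61 to 62.1 TPM. Ephrins and their receptors, which sort tissues at boundaries, rose in 11 of 25 rows and fell in 1 (median 0.67), among them ephb2.S by 2.6 on the log2 scale. Ion channel rows rose in 19 and fell in 8 of 78 (median 0.12), also near the shares of all rows.

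Ribosomal protein genes made the largest coordinated gain in abundance. Of 117 rows 110 rose and 0 fell, and the quartiles of their log2 differences were 1.39 and 1.85 around a median of 1.6. Their sum was 7404 TPM at blastula, 25712 at gastrula, 75037 at early neurula, then 101948 at mid neurula. The row rpsa.L rose from 69.3 to 423 TPM, and rps20.L, one of the largest gains in TPM of any row, from 1111 to 2723 TPM. Because each column is scaled to a fixed total, such a gain lowers the other rows' share. With the ribosomal rows removed and the columns rescaled, 4957 rows rose and 3920 fell. Translation factors did not move with the ribosome, as 12 rose and 5 fell of 95 (median 0.3), with eif1.L falling from 1231 to 179.5 TPM and eef1a1o.S at 7866 and 6874 TPM.

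Energy metabolism rows went both ways. Oxidative phosphorylation rows rose in 34 and fell in 7 of 123 (median 0.45). Glycolysis rows fell in 14 and rose in 10 of 47 (median -0.39). Their risen share, 21.3%, was near the 18.6% of all rows, and no glycolysis gene rose in both copies. The fallen share was 29.8%, against 16.5% of all rows. Within glycolysis pkm.L, a pyruvate kinase row, fell from 182 to 34.2 TPM, and the lactate and pyruvate transporter slc16a3.L fell from 2470.1 to 346 TPM, one of the largest losses in TPM of any row. Over the same interval gapdh.S rose from 43.03 to 369.5 TPM and the phosphofructokinase row pfkp.L from 1.31 to 47.1 TPM. Stress and immediate early rows, a separate list, rose in 8 and fell in 10 of 53, shares near the 18.6% and 16.5% of all rows. Within that list the antiproliferative gene btg2.S rose from 28.8 to 356 TPM.

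Outside the gene lists, rows named for their rank included large losses. The replacement histone h3f3b.L fell from 3428 to 1011 TPM and the acidic nuclear protein anp32c.S from 3912 to 1695 TPM. The histone hist1h2aa.L, among the rows of lowest difference, fell from 305 to 15.6 TPM. The cold-inducible RNA-binding gene cirbp gave a value that cannot be read as a fall. Its row cirbp.L read 918 TPM at blastula, 5676 at gastrula and 5758 at mid neurula and was listed at 0 at early neurula, while cirbp.S stood at 5424 and 7413 TPM. In all, 6 rows were listed at 0 at one of the 2 stages with at least 10 TPM at the other, and cirbp.L was the only one with at least 10 TPM in both neighbouring columns.

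The L and S copies of a gene seldom went opposite ways, but in most pairs with a change only one of them passed the limit. Among 6669 pairs with both copies in the comparison the log2 differences of L and S had a Pearson correlation of 0.639, a description across genes whose copies may share reads. In 762 of the 2039 pairs with a risen copy both copies rose (37.4%), and in 488 of the 1505 pairs with a fallen copy both fell (32.4%). The copies went opposite ways in 83 pairs, 48 of which had a level of at least 5 TPM in each copy. Chosen after their values were seen, 2 such pairs are given. The glycolytic enolase row eno1.L rose from 69.5 to 147 TPM while eno1.S fell from 90.5 to 31.1 TPM, and the ribonucleotide reductase row rrm1.L fell from 81.9 to 15.6 TPM while rrm1.S rose from 37.8 to 78.0 TPM.

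The explants, D1 cells kept away from the embryo, passed through the same stages without the rest of the embryo and share no column with the progeny, although their table was scaled separately. Over the same 25062 rows 4014 rose (16.0%) and 5303 fell (21.2%) in explants. These rows were kept by their progeny levels alone, so rows high only in explants are left out. How far that choice shifts the counts and shares of the 2 tissues was not tested. Both tissues rose in 2007 rows, 43.1% of the progeny's risen rows and 50.0% of the explants'. Both fell in 3100 rows, 75.04% of the progeny's fallen rows and 58.5% of the explants'. A rise in progeny met a fall in explants in 93 rows, 2.00% of the progeny's risen rows, and the reverse held for 50 rows, 1.21% of its fallen rows. None of these differences between the tissues was tested, as each has 1 pooled column a stage.

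By gene group the counts of risen rows, again over rows kept by their progeny levels alone, were set side by side. Of the 54 contractile rows 34 rose in progeny and 3 in explants, where actc1.L read 0.0597 and 1.39 TPM. Of the 46 eye-field and forebrain rows 33 rose in progeny and 12 in explants, and of the 27 Hedgehog rows 15 and 2. Hox and Cdx rows rose in 59 rows in progeny and 36 in explants of 78, with 0 falls in explants. Their levels were lower in explants, with sums of 63.3 and 273 TPM at the 2 stages against 804 and 1359 TPM in progeny. Keratins rose in 11 and 13 of 15 rows, and the epidermis list in 22 and 35 of 51. For cilia the counts were turned round, with 14 risen rows in progeny and 42 in explants of 52, and tekt2.S read 0.314 and 103 TPM in explants. The ionocyte list had 5 risen rows in progeny and 17 in explants, where foxi1.L read 294 and 117 TPM. Cement gland, ribosomal protein and maternal rows were alike in count: 5 and 5 gland rows rose, 110 and 97 ribosomal rows rose, and 35 and 37 maternal rows fell in progeny and explants.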

How the data were processed

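Messenger RNA of D1 progeny and explants was sequenced in 42 samples, per the labels. TopHat, Bowtie2, Cufflinks and Cuffdiff appear, with no version, in the submitters' processing notes. Genome build, annotation and the manner of pooling the 3 samples of a group were not given in the sources used here. Per the file headers the deposited values are TPM, which the authors made before deposit, in 2 tables of 7 pooled columns each. The 2 progeny columns used here sum to 998948 and 998784 TPM, with 35465 and 35543 rows above 0. TPM keeps no read depth, so no counting interval can be given, and reads may be shared between L and S copies.

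From these values log2(TPM + 1) differences were computed with Python 3.11.15, numpy 2.4.6 and pandas 2.3.3, for rows with at least 1 TPM in 1 of 7 columns, and a difference of 1 served as the limit in place of a test. The script was tested on simulated data. The members and gene lists were chosen with earlier results of these data known. A row can be on more than 1 list, and the 40 lists hold 1916 different rows of the comparison. Named rows have a symbol and at least 5 TPM at either stage, and are the 15 of highest and 15 of lowest difference with 1 row a homeolog pair, the 10 largest gains and losses in TPM, up to 6 risen and 6 fallen rows and the most abundant row of each list, and a set of anchor genes, 385 rows in all. Hox groups were summed over all their rows. Named beyond the rule above, after their values were seen, were hoxd1, hba1, gata1, nkx2-5.L, sox10.L, grhl3.S, dlx3, eno1 and rrm1. The alternatives were other pseudocounts, filters, scalings and thresholds, and L and S copies summed.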

Additional observations from a re-analysis of the deposited data

Results flagged for a closer look

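Among the named rows, 11 moved by at least 2-fold in one direction in progeny and by at least 2-fold in the other in explants between gastrula and early neurula. The difference between the tissues was not tested, since each tissue has 1 pooled column a stage and the tables were scaled separately. Values are log2(TPM + 1) differences.

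The S copies of ventral homeobox genes fell in progeny and rose in explants: ventx1.1.S (-2.7 in progeny, 1.97 in explants), ventx1.2.S (-2.94 and 1.08) and ventx3.2.S (-1.72 and 2.31). The explant levels of ventx1.1.S were 12.3 and 50.9 TPM, and the progeny levels 44.4 and 5.99 TPM. The ionocyte carbonic anhydrase ca12.L (-1.52 in progeny, 2.58 in explants), the cilia row wdr78.S (-1.04 and 1.13) and the ventrolateral ligand wnt8a.L (-1.12 and 1.07) took the same course. For wdr78.S the fall in progeny no longer reached 2-fold with median-of-ratios scaling, with copies summed or without ribosomal rows. For wnt8a.L the explant levels were low, 0.89 and 2.95 TPM. The L copies ventx1.1.L and ventx1.2.L also fell in progeny (-2.26 and -2.89). In explants they stayed within 2-fold (-0.18 in each), so the opposite course of ventx1.1 and ventx1.2 was that of their S copies.

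In the other direction, rows rose in progeny and fell in explants. They were the hindbrain and crest gene egr2.L (1.79 in progeny, -1.08 in explants), the neural bHLH gene olig4.L (3.52 and -1.03), the Hes repressor hes7.1.S (1.02 and -1.72) and the replication clamp pcna.S (1.59 and -1.06). For egr2.L and olig4.L the explant levels were low, 1.79 and 0.324 TPM in egr2.L and 1.37 and 0.161 TPM in olig4.L. With both pcna copies summed the progeny difference was 0.67, under 2-fold. The keratin row krt5.7.L rose by 1.66 in progeny, from 479.7 to 1522 TPM, and in explants read 591 TPM at gastrula and was listed at 0 at early neurula, so no explant fold is given.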

How the results depend on the processing

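No paired analysis was possible because each stage has 1 pooled column, which carries no frog number, and for the same reason no sample could be left out. Against 4653 risen and 4131 fallen rows, a pseudocount of 5 gave 2240 and 2283, and a 4-fold limit gave 1236 and 1090, both fewer by construction. The other settings stayed within 1.5 times: 6722 and 5704 with a pseudocount of 0.1, 5075 and 4048 under median-of-ratios scaling, and 3263 and 3121 with L and S copies summed. Leaving out rows listed at 0 (4527 and 4089) and rescaling without ribosomal rows (4957 and 3920) were chosen after seeing the data. Of 346 named rows past 2-fold, 341 stayed so in the same direction under median-of-ratios scaling, the exceptions being bmp4.L, epcam.S, grhl3.L, uqcrb.L and wdr78.S, and 313 with copies summed. With a pseudocount of 0.1 all 346 stayed so, but the sizes depend on this setting. The fold shifted by at least 1.5 times in 118 of the 385 named rows and in 9 of 40 list medians. Over rows with at least 5 TPM at either stage, 8 list medians shifted by as much. With copies summed the difference changed sign for meis2.S (1.41), nog.S (-0.13), notum.L (0.27), sdhb.L (0.18) and uqcrb.L (0.71), since the other copy outweighed the named one. The list medians changed sign in 4 lists: ionocyte (-0.94) and FGF (-0.22) over rows with at least 5 TPM at either stage, and Nodal and stress under median-of-ratios scaling (0.01 and 0.04) and without ribosomal rows (0.02 and 0.05), with stress also at 0.0079 with copies summed. The main medians were 0.22, 0.05, -0.03 and -0.0024, and the cause was not tested. Without replicates, no difference here can be set against a spread between samples.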

Other observations

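Several of the largest gains in abundance were of genes already abundant at gastrula. The constitutive chaperone rows hspa8.S and hspa8.L stood at 2694 and 1965 TPM at gastrula and at 5055 and 3263 at early neurula, each under 2-fold. The growth-related gene tpt1.L went from 3038 to 4546 TPM, the mitochondrial ADP/ATP carrier slc25a5.L from 3182 to 4551 TPM and the keratin row krt.S from 945 to 2265 TPM. At the other end, the splicing factor srsf2.L went from 4870.1 to 2898 TPM, the chromatin protein hmgb3.L from 2754 to 1179 TPM and the arginine methyltransferase prmt1.L from 3687 to 2480.4 TPM.

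The secreted lectin row itln1.L, known from the larval skin, read 1.62 TPM at gastrula, 149 at early neurula, then 1111 at mid neurula in progeny, and 1.23 and 1606 TPM in explants at gastrula and early neurula. The gap junction row gjb1.L rose from 74.8 to 547 TPM. These rows are given as values only.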
